A study of Mus musculus with 20 samples.

Results

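The genes described here drive or carry out cell division and stand for the dividing progenitors of the neonatal mouse brain. They were taken by name: 16 genes that act in DNA synthesis or in the entry into S phase, among them the Mcm helicase subunits, Pcna, the Rrm and Tyms enzymes, Gins2, E2f1, the cyclins E, Cdc6 and Cdt1, and 34 genes that act in mitosis. Of these 50 genes, 49 had a probe set that the array annotation pairs with that gene alone, and Ccnb1 was not named in the table. The 49 genes were measured by 113 of the 45037 probe sets tested, 42 for 16 S-phase genes and 71 for 33 mitosis genes.

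RNA came from whole brains at postnatal day 3 (P3), measured on 20 Affymetrix arrays that each give 1 log2 signal per probe set. HDAC4 KO pups were homozygous for a knock-out of Hdac4, which encodes a class IIa histone deacetylase, and came from intercrosses within the colony, while WT pups were their littermates. The background of both genotypes was that of a colony kept by crossing heterozygous males with B6CBAF1/OlaHsd females, and neither received a treatment. Each genotype had 10 arrays, 5 from males and 5 from females by the labels. Which part of Hdac4 the allele lacks was not given in the sources used here.

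Cells commit to division when cyclin and CDK activity releases E2F transcription factors, which switch on the genes for nucleotide supply and for loading and firing replication origins. Later in the cycle a second wave of genes, controlled by the MuvB complex with B-MYB and FOXM1, builds the spindle, the kinetochores and the machinery that separates the daughter cells. In the P3 mouse brain dividing cells are found mainly in the subventricular zone, the external granule layer of the cerebellum and among glial precursors, and most neurons of the forebrain have already left the cycle. In RNA of a whole brain, fewer dividing cells and less of a transcript per dividing cell cannot be told apart, and the arrays do not show which cells carried a signal.

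The 2 waves differ in short promoter motifs, which are shown here because they group the genes by a property that does not depend on the arrays. RefSeq promoter windows of 300 bases (GRCm38.p6) matched 43 of the 50 genes with 46 windows. Ccne2, Gins2, Mcm4, Aurkb, Ccna2, Kif20a and Tpx2 had none. The cell cycle homology region (CHR), searched as TTTGAA on both strands, stood in 25 of 32 mitosis windows (78.12%) and in 1 of 14 S-phase windows (7.14%), against 17.89% of all 32851 promoters. The CCAAT box, the word of the factor NF-Y, stood in 24 of 32 mitosis windows (75%) and 9 of 14 S-phase windows (64.29%), against 37.41% of all. An E2F word (TTTGGCGC, TTTCCCGC, TTTCGCGC or TTTGCCGC) was found in 1 mitosis window (3.12%), that of Cdk1, and in 6 S-phase windows (42.86%), against 2.26% of all. These matches describe letters and do not show that a factor binds.

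**Figure D1:**
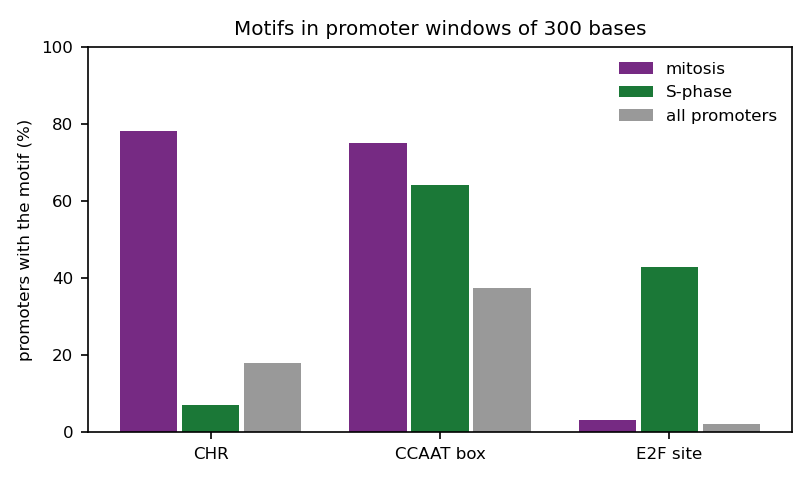
Share of 300-base promoter windows (percent, vertical axis) that hold each of 3 motifs (horizontal axis), for 32 windows of mitosis genes, 14 of S-phase genes and all 32851 promoters. The CHR stood in 78.12% of mitosis windows and the E2F words in 42.86% of S-phase windows, each above the share of all promoters.

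The windows below run from 150 bases before to 30 bases after the annotated start and are written in the direction of the gene. Capitals mark a CHR, a CCAAT box or an E2F word on either strand, and overlapping E2F words run together. Shown are 5 mitosis genes, of which Cdk1, Top2a and Ube2c are strongly expressed in dividing cells and Cenpf and Cenpe had a probe set that passed the test, followed by 3 S-phase genes with E2F words. Cdk1 lies at chr10:69352883-69353062, minus strand. Top2a lies at chr11:99024160-99024339, minus strand. Ube2c lies at chr2:164769779-164769958, plus strand. Cenpf lies at chr1:189688057-189688236, minus strand. Cenpe lies at chr3:135212413-135212592, plus strand. Mcm6 lies at chr1:128359676-128359855, minus strand. Mcm3 lies at chr1:20820283-20820462, minus strand. Cdc6 lies at chr11:98908001-98908180, plus strand.
Cdk1: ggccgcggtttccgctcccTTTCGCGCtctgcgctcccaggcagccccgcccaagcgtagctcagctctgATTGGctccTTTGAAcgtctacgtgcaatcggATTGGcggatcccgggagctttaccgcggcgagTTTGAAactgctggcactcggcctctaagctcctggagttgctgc
Top2a: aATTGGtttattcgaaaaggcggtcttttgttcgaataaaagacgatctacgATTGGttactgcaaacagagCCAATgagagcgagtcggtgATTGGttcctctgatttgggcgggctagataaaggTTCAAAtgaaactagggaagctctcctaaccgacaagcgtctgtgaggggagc
Ube2c: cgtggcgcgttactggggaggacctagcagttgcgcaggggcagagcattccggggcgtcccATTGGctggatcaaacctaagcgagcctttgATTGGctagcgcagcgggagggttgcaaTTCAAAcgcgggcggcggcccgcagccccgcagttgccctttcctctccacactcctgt
Cenpf: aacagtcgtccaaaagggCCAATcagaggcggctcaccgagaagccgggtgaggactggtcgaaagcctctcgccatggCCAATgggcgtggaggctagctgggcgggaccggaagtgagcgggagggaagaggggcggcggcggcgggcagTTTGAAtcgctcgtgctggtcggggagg
Cenpe: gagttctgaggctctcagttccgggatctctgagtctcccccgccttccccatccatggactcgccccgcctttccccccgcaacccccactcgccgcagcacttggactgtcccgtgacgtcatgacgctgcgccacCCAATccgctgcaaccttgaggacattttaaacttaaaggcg
Mcm6: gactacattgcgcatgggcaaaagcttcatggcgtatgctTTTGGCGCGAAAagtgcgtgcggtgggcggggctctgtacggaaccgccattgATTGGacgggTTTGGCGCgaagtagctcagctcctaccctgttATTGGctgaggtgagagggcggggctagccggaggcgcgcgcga
Mcm3: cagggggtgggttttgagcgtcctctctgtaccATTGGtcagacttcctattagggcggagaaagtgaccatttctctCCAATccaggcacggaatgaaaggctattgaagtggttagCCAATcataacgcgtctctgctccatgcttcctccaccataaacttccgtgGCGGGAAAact
Cdc6: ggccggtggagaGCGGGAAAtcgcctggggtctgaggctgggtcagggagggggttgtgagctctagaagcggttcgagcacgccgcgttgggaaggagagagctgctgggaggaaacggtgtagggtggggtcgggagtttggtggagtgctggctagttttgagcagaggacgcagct
Within these stretches Cdk1 held 2 CHR words, 2 CCAAT boxes and 1 E2F word, while Top2a held 1 CHR word with 4 CCAAT boxes. Ube2c and Cenpf each held 1 CHR word and 2 CCAAT boxes, and Cenpe held no CHR word and 1 CCAAT box. Mcm6 held 3 E2F words, Mcm3 held 1 beside 3 CCAAT boxes, and Cdc6 held 1 E2F word. Knl1 also had a probe set that passed the test and is not shown. The same stretch of its promoter held none of these words.

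Hdac4 itself, the targeted gene, was lower at all 3 of its probe sets. On the brightest, the log2 signal ranged between 6.02 and 7.43 (median 6.50) in HDAC4 KO brains and between 7.54 and 8.08 (median 7.96) in WT brains, with a log2 fold change (log2FC, HDAC4 KO minus WT) of −1.39 (SE 0.12, limma adjusted p = 6.28e-07). HDAC4 KO replicate 10 (7.43) stood apart at the top of its group, and WT replicate 8 (7.54) was the lowest WT array. Sex-linked genes went against the sex label in 3 arrays, HDAC4 KO replicate 10, WT replicate 5 and WT replicate 9. All labels were kept. Calls of cell cycle probe sets and of the interaction between sex label and genotype were also counted without these arrays. Values within each labelled sex were not computed without them. The median signal of all probe sets was between 6.26 and 6.32 in every array. RNA integrity was read from actin and Gapdh control probe sets as the signal at the 3′ end minus that at the 5′ end (3′ minus 5′ signal), which was 0.22 ± 0.03 in HDAC4 KO and 0.19 ± 0.03 in WT brains on the log2 scale (SD, n = 10 each).

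Cell cycle genes were lower in HDAC4 KO brains at 4 probe sets, which belong to Ccne2 among the S-phase genes and to Cenpe, Cenpf and Knl1 among the mitosis genes. These were 1 of 42 S-phase and 3 of 71 mitosis probe sets at an adjusted p under 0.05 from limma, against 1.01% of all probe sets called lower. No cell cycle probe set was called higher by limma, the methods' t-test or Welch's version of it, against 1.05% of all probe sets, and 0 were higher at an unadjusted p under 0.05, against 9.93%. At an unadjusted p under 0.05, 26 of the 113 probe sets were lower (6 S-phase, 20 mitosis), against 8.1% of all. Every gene was also read at its brightest probe set, the one with the highest mean signal over all 20 arrays of both genotypes. There 1 of 49 genes was called lower, against 0.517% of all 18193 genes, and 0 were called higher, against 1.45%. At the unadjusted threshold 13 of the 49 genes were lower (3 S-phase, 10 mitosis), against 6.19% of all genes, and 0 were higher, against 12.8%.

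Most cell cycle genes had a small negative fold change. At the brightest probe set 45 of 49 genes lay below 0 (15 of 16 S-phase and 30 of 33 mitosis genes), whereas 42.8% of all genes did. The median log2FC was −0.08 over the S-phase genes and −0.10 over the mitosis genes, and 0.01 over all genes. The 49 values ran between −0.29 for Ccne2 and 0.05 for Nuf2. Of the 113 probe sets 74 exceeded the median of their array in at least 10 of 20 arrays, and the other 39 (12 S-phase, 27 mitosis) are called dim here. The 4 genes above 0 were Ccne1, Kif2c, Racgap1 and Nuf2, with values between 0.04 and 0.05, none of which passed the test. Because the genes moved together across arrays (Pearson's r had a median of 0.74 over pairs of mitosis genes), the 49 values are not separate observations.

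**Figure D2:**
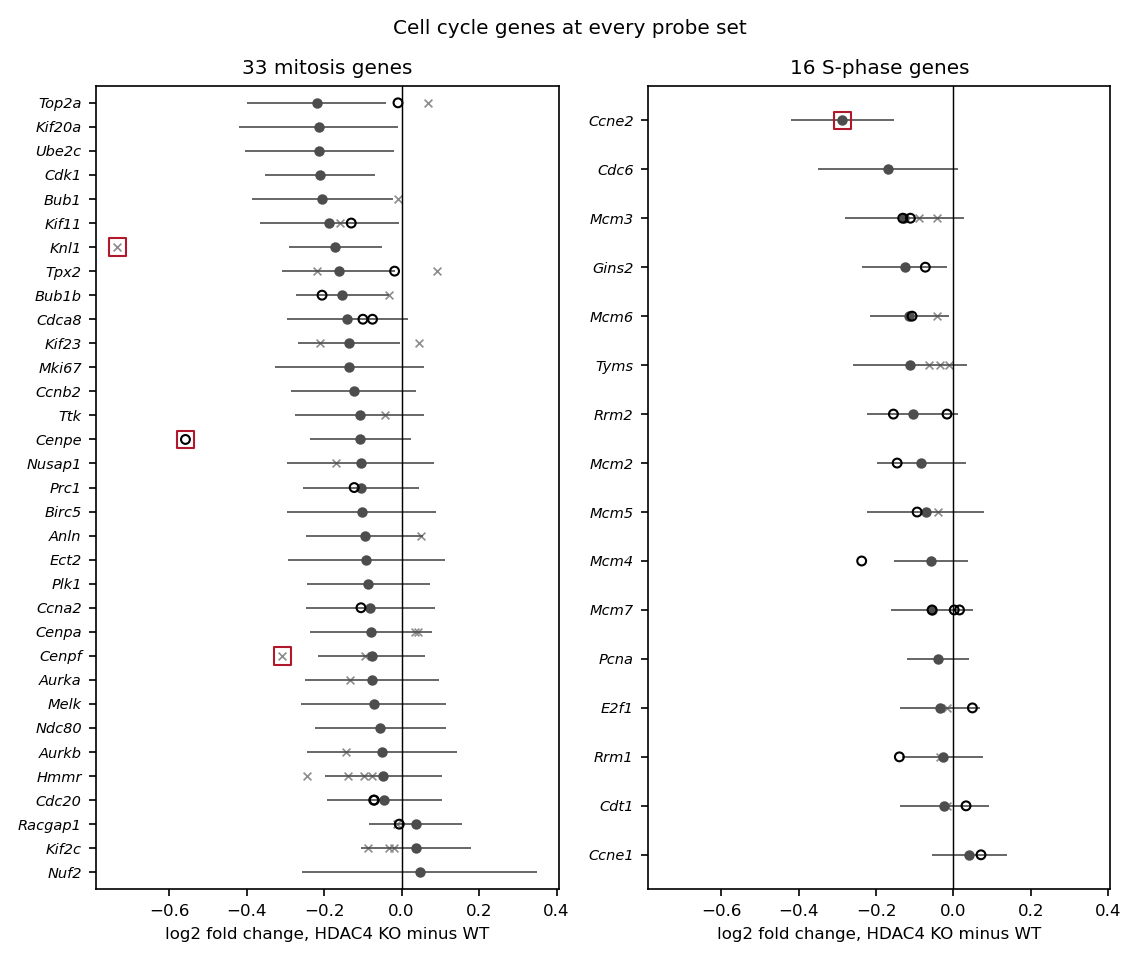
Log2 fold change (HDAC4 KO minus WT, horizontal axis) of every probe set of 33 mitosis genes and 16 S-phase genes, sorted by the brightest probe set. Filled circles are brightest probe sets with 95% confidence intervals from limma, open circles other probe sets, crosses dim ones and squares the 4 that were called, of which only that of Ccne2 is the brightest of its gene.

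Ccne2, the cyclin E2 that activates CDK2 at the start of S phase, had log2 signals between 6.37 and 6.86 (median 6.80) in HDAC4 KO brains and between 6.78 and 7.20 (median 7.02) in WT brains. The groups overlapped little, since every HDAC4 KO array lay below the WT mean and 4 lay below every WT array. Its mean was 6.74 ± 0.15 in HDAC4 KO and 7.03 ± 0.15 in WT brains (SD, n = 10 each), a ratio of 0.82 (log2FC −0.29, SE 0.06, adjusted p = 0.0246 from limma). The call was lost without WT replicate 2 (adjusted p = 0.0523), WT replicate 4 (0.0511) or HDAC4 KO replicate 8 (0.0521), and without the 3 arrays that went against their sex label (log2FC −0.27, adjusted p = 0.0729). Its partner Ccne1, cyclin E1, had 7.38 ± 0.10 in HDAC4 KO and 7.34 ± 0.11 in WT brains (SD, n = 10 each) and did not pass the test (log2FC 0.04, adjusted p = 0.704).

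The replication licensing factors and the helicase did not pass the test. Cdc6, which loads the helicase onto origins and was dim on these arrays, had signals between 4.93 and 5.51 (median 5.23) in HDAC4 KO and between 5.12 and 5.72 (median 5.42) in WT brains, with a log2FC of −0.17 (95% confidence interval −0.35 to 0.01, adjusted p = 0.315). Gins2, a subunit of the GINS complex of the active helicase, had signals between 6.98 and 7.36 (median 7.20) in HDAC4 KO and between 7.07 and 7.43 (median 7.33) in WT brains, with a log2FC of −0.13 (adjusted p = 0.208). In both genes the ranges of the genotypes largely overlapped. Of the helicase subunits, Mcm3 had a log2FC of −0.13 (adjusted p = 0.383), Mcm6 of −0.11 (0.224) and Mcm2 of −0.08 (0.455). Mcm4 had −0.06 (adjusted p = 0.550) at its brightest probe set and −0.24 (0.0989) at the other, where 9 of 10 HDAC4 KO arrays lay below the WT mean.

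Pcna, the sliding clamp of DNA polymerase, had a narrow range in both genotypes. Its signal was between 11.5 and 11.8 (median 11.6) in HDAC4 KO brains and between 11.6 and 11.8 (median 11.7) in WT brains, and the log2FC was −0.04 (95% confidence interval −0.12 to 0.04, adjusted p = 0.647). Rrm2, the small subunit of ribonucleotide reductase, had a log2FC of −0.11 (adjusted p = 0.339). Both genotypes covered nearly the same range for Pcna.

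Among the mitosis genes, the 3 called probe sets belong to Cenpe, Cenpf and Knl1, whose proteins act at the kinetochore, the structure that ties chromosomes to the spindle. Other kinetochore genes were not called, with log2FC values at the brightest probe set of −0.06 for Ndc80 (adjusted p = 0.783), −0.08 for Cenpa (0.633) and 0.05 for Nuf2 (0.911). Cenpe encodes the kinesin motor that aligns chromosomes. At its called probe set the signal was between 5.81 and 6.85 (median 6.55) in HDAC4 KO and between 6.65 and 7.31 (median 7.06) in WT brains, with 10 of 10 HDAC4 KO arrays below the WT mean and 5 below every WT array. The means were 6.47 ± 0.35 and 7.03 ± 0.23 for HDAC4 KO and WT brains (SD, n = 10 each), a ratio of 0.679 (log2FC −0.56, SE 0.12, adjusted p = 0.0234). Its brightest probe set had a log2FC of −0.11 (adjusted p = 0.388), with 6.77 ± 0.14 in HDAC4 KO and 6.87 ± 0.15 in WT brains. In WT brains alone the called probe set of Cenpe was the brighter (7.03 against 6.87). Its lower HDAC4 KO values therefore decided which probe set counts as brightest.

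Cenpf encodes a large coiled-coil protein of the outer kinetochore. Its called probe set, below the median of all probe sets in every array, ranged between 4.85 and 5.51 (median 5.30) in HDAC4 KO and between 5.38 and 5.79 (median 5.58) in WT brains. Of the HDAC4 KO arrays, 7 lay below every WT array, and the log2FC was −0.31 (SE 0.07, adjusted p = 0.0257). Cenpf's brightest probe set had −0.08 (adjusted p = 0.584) and 5 of 10 HDAC4 KO arrays below the WT mean. Knl1 encodes the scaffold that binds the spindle checkpoint proteins BUB1 and BUBR1. Its called probe set, also dim in every array, ranged between 3.17 and 4.08 (median 3.69) in HDAC4 KO and between 3.94 and 5.32 (median 4.33) in WT brains, a log2FC of −0.73 (SE 0.15, adjusted p = 0.0203). There 8 HDAC4 KO arrays lay below every WT array. The brightest probe set of Knl1 had −0.17 (adjusted p = 0.116), with 9 of 10 HDAC4 KO arrays below the WT mean. Without WT replicate 2 the calls of Cenpe (adjusted p = 0.0506) and Cenpf (0.0520) were lost, and that of Cenpf also without WT replicate 4 (0.0522). Without WT replicate 8 and HDAC4 KO replicate 10, the arrays whose Hdac4 signals came closest to the other genotype, 1 mitosis probe set stayed called, that of Cenpf, while Cenpe (0.0510) and Knl1 (0.0550) missed the threshold.

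**Figure D3:**
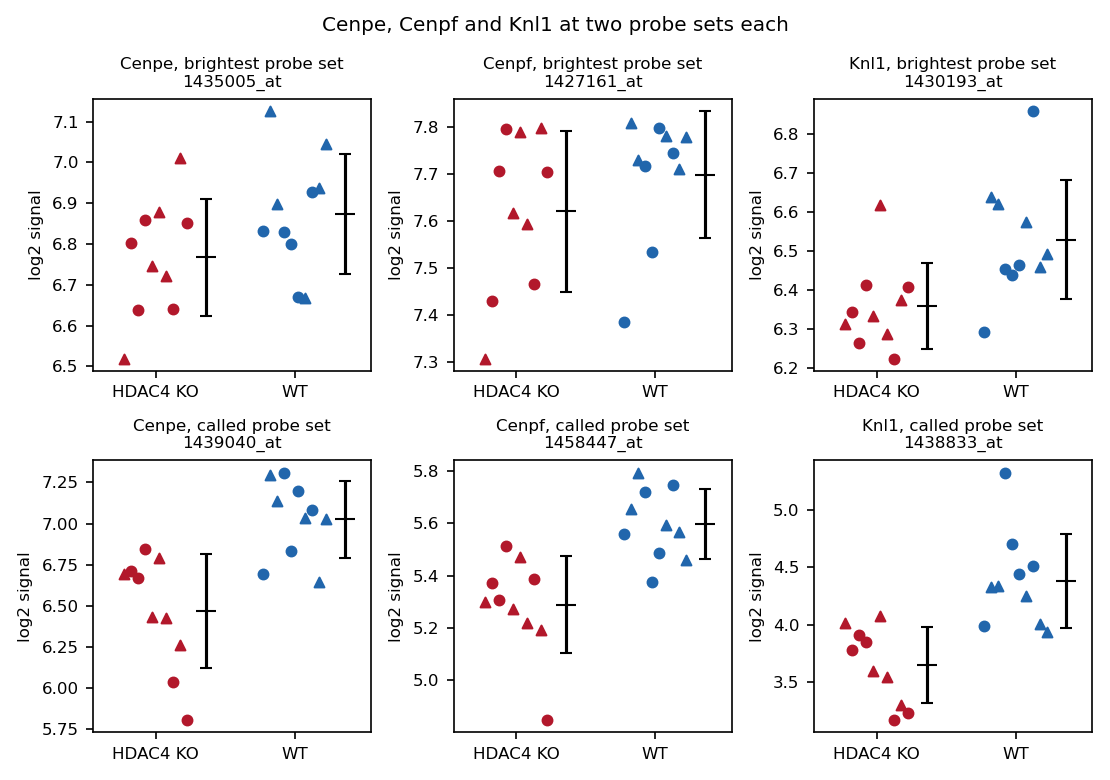
Log2 signal (vertical axes, which differ between panels) of Cenpe, Cenpf and Knl1 at the brightest probe set (top) and the called probe set (bottom) in 10 HDAC4 KO (red) and 10 WT (blue) arrays. Circles are arrays labelled male, triangles female, bars the mean ± SD. For each gene the genotypes are further apart at the called than at the brightest probe set. The bottom row was picked by the genotype test, which favours such a gap.

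The called and the brightest probe set of Cenpe, Cenpf and Knl1 correlated weakly if at all. Across the 20 arrays, with the genotype means removed, Pearson's r between them was −0.03 for Cenpe (Spearman's rho 0.03, permutation p = 0.901 and 0.912), 0.07 for Cenpf (rho 0.10, p = 0.789 and 0.699) and 0.21 for Knl1 (rho 0.15, p = 0.407 and 0.540). Without the 2 arrays farthest from the median the values of r were −0.06, 0.07 and 0.02. None passed after adjustment over 16 relations (adjusted p between 0.592 and 0.912). Which part of a transcript each probe set reads was not given in the sources used here.

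Other genes also differed between their probe sets. Tpx2, which activates the kinase Aurora A at the spindle, had log2FC values of −0.16 at the brightest (adjusted p = 0.225), −0.22 at a dim (0.220) and 0.09 at another dim probe set (0.562). For Top2a the brightest had −0.22 and a dim probe set 0.07, and for Kif23, a kinesin of cytokinesis, the brightest had −0.14 (adjusted p = 0.264), and 2 dim probe sets had −0.21 (0.0998) and 0.05 (0.804). Hmmr, a spindle protein, had −0.05 at the brightest (adjusted p = 0.797) and −0.24 at a dim probe set (0.109). Bub1 had −0.20 at the brightest and −0.01 at a dim probe set. None of these passed the test.

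The genes that are usually read as signs of dividing cells did not pass the test at their brightest probe sets. Mki67, which encodes the proliferation marker Ki-67, had signals between 8.60 and 9.31 (median 8.89) in HDAC4 KO and between 8.71 and 9.35 (median 9.13) in WT brains, a log2FC of −0.14 (SE 0.09, 95% confidence interval −0.33 to 0.06, adjusted p = 0.472). Top2a, the topoisomerase that untangles chromosomes, had signals between 8.34 and 9.15 (median 8.78) in HDAC4 KO and between 8.73 and 9.20 (median 9.02) in WT brains, a log2FC of −0.22 (SE 0.09, adjusted p = 0.174). For both genes the genotypes overlapped widely, with 7 and 8 of 10 HDAC4 KO arrays below the WT mean.

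Cdk1, the kinase that drives entry into mitosis, had the smallest p of the mitosis genes at the brightest probe set. It had signals between 7.63 and 8.25 (median 7.94) in HDAC4 KO and between 7.998 and 8.35 (median 8.20) in WT brains, and 5 HDAC4 KO arrays lay below every WT array. The log2FC was −0.21 (SE 0.07, adjusted p = 0.103), and it passed in none of 32 alternatives (adjusted p between 0.0603 and 0.234). Of its cyclin partners, Ccna2 had −0.08 (adjusted p = 0.651) and Ccnb2 −0.12 (0.429).

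The genes of the spindle checkpoint and of the ubiquitin ligase it restrains had values below 0 and did not pass the test. Bub1, a checkpoint kinase, had signals between 6.97 and 7.66 (median 7.25) in HDAC4 KO and between 7.17 and 7.68 (median 7.51) in WT brains, with a log2FC of −0.20 (adjusted p = 0.218). Bub1b, the gene of BUBR1, had signals between 6.32 and 6.84 (median 6.64) in HDAC4 KO and between 6.53 and 6.95 (median 6.76) in WT brains, with a log2FC of −0.15 (adjusted p = 0.162) and 9 of 10 HDAC4 KO arrays below the WT mean. Cdc20, the activator of the ligase APC/C, had −0.04 (adjusted p = 0.804), and Ube2c, the ubiquitin-conjugating enzyme that works with it, had −0.21 (0.229).

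Apart from Kif2c, the mitotic kinases and motors had values below 0 at the brightest probe set, and apart from Cenpe none passed the test at any probe set. Plk1, a kinase of spindle and centrosome, had a log2FC of −0.09 (adjusted p = 0.603) and Aurka, the gene of Aurora A, −0.08 (0.685), while Birc5, the survivin subunit of the Aurora B complex, had −0.10 (0.609). Of the kinesins, Kif20a, needed for cytokinesis, had −0.21 (adjusted p = 0.252), Kif11, which separates the spindle poles, −0.19 (0.258), and Kif2c, which takes microtubules apart, 0.04 (0.831). The dim probe sets of Kif2c had log2FC values between −0.09 and −0.02. Nuf2, a subunit of the kinetochore's NDC80 complex, had the highest value, 0.05 (adjusted p = 0.911), with signals between 6.94 and 7.95 (median 7.56) in HDAC4 KO and between 6.75 and 7.85 (median 7.36) in WT brains. Racgap1, which positions the cleavage furrow, had 0.04 (adjusted p = 0.805). Cenpf, Mcm3, Mcm6 and Nuf2 lie on chromosome 1, which also carries Hdac4, and had log2FC values of −0.08, −0.13, −0.11 and 0.05 at their brightest probe sets. The called probe set of Cenpf had −0.31 (adjusted p = 0.0257 from limma).

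Across arrays the genes varied together in both genotypes. With each gene centred on its mean over the 20 arrays, the mean of the 33 mitosis genes was between −0.31 and 0.21 (median −0.06) in HDAC4 KO and between −0.20 and 0.20 (median 0.09) in WT brains. Its group means were −0.05 ± 0.19 in HDAC4 KO and 0.05 ± 0.12 in WT brains (SD, n = 10 each), so the difference of −0.11 was smaller than either SD. HDAC4 KO replicates 8 (−0.31) and 1 (−0.27) were lowest, HDAC4 KO replicates 9 and 6 (both 0.21) were highest, and 7 of 10 HDAC4 KO arrays lay below the WT mean. The mean of the 16 S-phase genes was between −0.22 and 0.13 (median −0.04) in HDAC4 KO and between −0.15 and 0.15 (median 0.06) in WT brains. There the group means were −0.04 ± 0.11 in HDAC4 KO and 0.04 ± 0.09 in WT brains (SD, n = 10 each), and 8 of 10 HDAC4 KO arrays lay below the WT mean. The genotypes overlapped in both means.

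**Figure D4:**
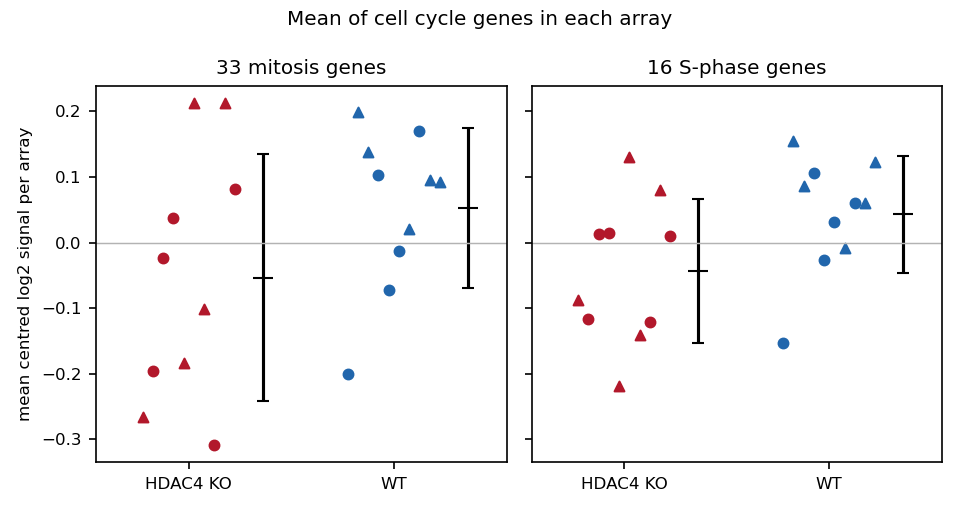
Mean centred log2 signal per array (vertical axis) of 33 mitosis genes and 16 S-phase genes in HDAC4 KO (red) and WT (blue) brains. Circles are arrays labelled male, triangles female, bars the mean ± SD over each genotype; HDAC4 KO arrays spread from −0.31 to 0.21 in the mitosis mean and overlap the WT arrays.

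The correlations between genes were mostly positive. With genotype means removed, Pearson's r over 20 arrays had a median of 0.74 over the 528 pairs of mitosis genes, 0.57 over the 120 pairs of S-phase genes and 0.61 over the 528 pairs of an S-phase with a mitosis gene, which share arrays and labelling. It was above 0 in 527, 116 and 525 of these pairs. The same share was not computed for pairs of all genes. Mki67 followed Top2a with r = 0.96 (Spearman's rho 0.96, adjusted p = 8e-05 for both, from a raw permutation p of 1e-05, the smallest that 100000 resamples can give), and r was 0.96 without the 2 arrays farthest from the median. Within genotype that r was 0.97 in HDAC4 KO and 0.95 in WT brains. Mki67 followed Cdk1 with r = 0.91 (rho 0.85, adjusted p = 8e-05 for both, r = 0.90 without the 2 arrays), Pcna with 0.83 (rho 0.75, adjusted p = 0.000107 and 0.00261, 0.89 without them) and Mcm2 with 0.70 (rho 0.60, adjusted p = 0.00568 and 0.0322, 0.65 without them).

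The 4 called probe sets had lower correlations with Mki67. Their r with Mki67 was 0.38 for Ccne2 (rho 0.41, adjusted p = 0.238 and 0.199), 0.42 for Cenpe (rho 0.45, 0.238 and 0.186), 0.19 for Cenpf (rho 0.23, 0.596 and 0.582) and 0.21 for Knl1 (rho 0.22, 0.579 and 0.582), and without the 2 farthest arrays r was 0.29, 0.23, 0.27 and −0.02. For Cenpe the r was 0.21 in HDAC4 KO and 0.83 in WT brains. The difference between these correlations and those of Mki67 with Top2a or Cdk1 was not tested. The called probe sets of Cenpf and Knl1 lay below the array median in every array, and the part of low signal in their r was not tested.

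**Figure D5:**
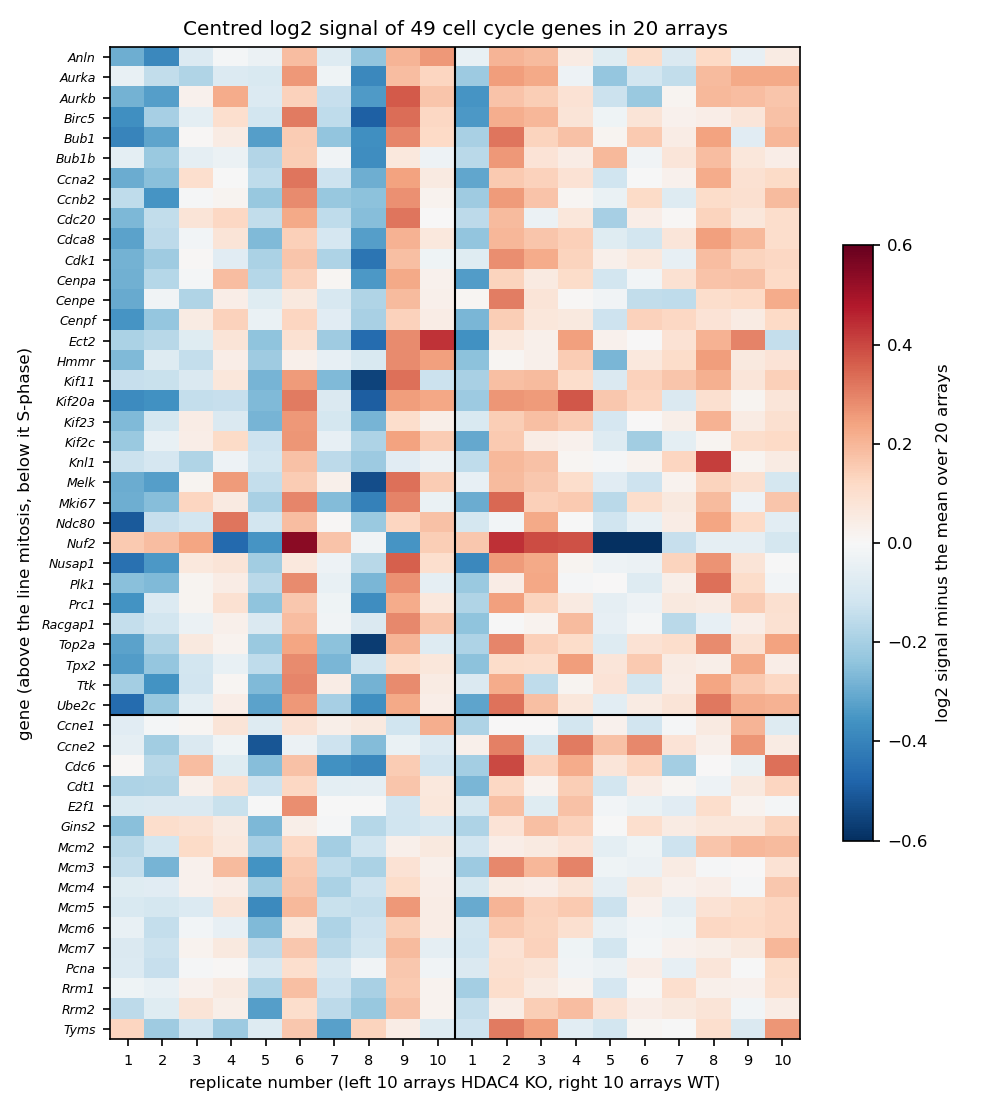
Log2 signal minus the mean over 20 arrays (colour) of 49 genes at their brightest probe set (rows, mitosis above the line and S-phase below) in 10 HDAC4 KO arrays (left) and 10 WT arrays (right). Whole columns are blue or red across most mitosis genes, as in HDAC4 KO replicates 1 and 8 (low) and 6 and 9 (high), whereas Nuf2 and Ccne1 vary on their own.

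The 4 calls did not hold with RNA integrity in the fit. The 3′ minus 5′ signal itself differed between the genotypes, with 1 of 10 HDAC4 KO arrays below the WT mean and 5 WT arrays below every HDAC4 KO array. RNA integrity and genotype therefore cannot be fully told apart in this fit. With the 3′ minus 5′ signal as a covariate none of the 4 probe sets passed, at log2FC values of −0.32 for Ccne2 (adjusted p = 0.0776), −0.48 for Cenpe (0.115), −0.25 for Cenpf (0.127) and −0.68 for Knl1 (0.0928). In that fit 20 probe sets of the whole array were called lower and 23 higher, against 453 and 474 without the covariate. The medians over genes were then −0.10 for the S-phase and −0.12 for the mitosis genes. Across arrays with genotype means removed, the 3′ minus 5′ signal had r = −0.33 with Cenpe (rho −0.33), −0.45 with Cenpf (rho −0.42, raw permutation p = 0.0482 and 0.0725, adjusted p = 0.154 and 0.193), −0.16 with Knl1 (rho −0.21), 0.29 with Ccne2 (rho 0.17) and 0.15 with Mki67 (rho −0.04), and none passed after adjustment.

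Within both labelled sexes most genes lay below 0. Over the 49 genes the median log2FC was −0.06 in males, with 39 genes below 0, and −0.14 in females, with 47 below 0, from 5 arrays per genotype and sex. These groups follow the labels and include the 3 arrays whose sex-linked genes went against them. No cell cycle probe set was called by limma in either sex, against 0.0377% of all probe sets in males and 0.04% in females. At an unadjusted p under 0.05, 14 of 113 probe sets were lower and 2 higher in males (all probe sets, 6.11% and 6.44%), and 18 were lower and 0 higher in females (5.06% and 6.11%). The difference between the sexes, tested as the interaction of sex label and genotype, was called for 0 of the 113 probe sets (lowest adjusted p = 0.915) and for 0% of all. At an unadjusted p under 0.05 there were 4, against 5.35% of all, and without the 3 arrays that went against their label the count of calls was again 0.

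Lists of other cell cycle genes also had medians below 0, which came near that of the mitosis genes (−0.10) for other mitosis genes and were smaller for replication genes, G1 cyclins and E2F, RB and DREAM regulators. Of 39 other mitosis genes 35 lay below 0 at the brightest probe set, with a median log2FC of −0.09, and 7 of their 89 probe sets were called lower and 0 higher, against 1.01% and 1.05% of all probe sets. The condensin subunit Smc4 was lower at 2 probe sets (log2FC −0.41, adjusted p = 0.0444, and −0.35, adjusted p = 0.0240), and dimmer probe sets of Ncapg (−0.50, 0.0203) and Smc2 (−0.34, 0.0364), also condensin genes, and of Ckap2l, Aspm and Plk4 (adjusted p between 0.0298 and 0.0435), which serve spindle and centriole, made up the rest. When 1 array at a time was left out, Ncapg kept its call in 20 of 20 cases, the dimmer Smc4 probe set in 19, and the others in 7 to 12, and without WT replicate 2 only Ncapg kept it. Of 23 other replication genes 18 lay below 0 (median −0.05), and Rfc4, a subunit of the clamp loader for PCNA, was called lower (−0.20, adjusted p = 0.0425), also in 8 of 20 cases with 1 array left out. Of 9 genes for G1 cyclins and their kinases 6 lay below 0 (median −0.03) and none was called. At an unadjusted p under 0.05, 1 of these genes was lower, against 6.19% of all genes. Of their 32 probe sets 6 were lower and 1 higher at that threshold, against 8.1% and 9.93% of all probe sets. Ccnh had −0.09 (adjusted p = 0.166) and Cdk4 −0.06 (0.381). Of 19 E2F, RB and DREAM regulators 13 lay below 0 (median −0.03) and none was called, with 2 lower at an unadjusted p under 0.05. Rbl1, an RB relative, had −0.14 (adjusted p = 0.160) and E2f8, a repressing E2F, −0.16 (0.270).

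CDK inhibitors, which hold cells out of the cycle, had values on both sides of 0. Of 7 genes 3 lay below 0 at the brightest probe set (median 0.03). Cdkn1c, the gene of p57, was lower, with 9.39 ± 0.16 in HDAC4 KO and 9.64 ± 0.15 in WT brains (SD, n = 10 each; log2FC −0.25, adjusted p = 0.0494), and it stayed called in 7 of 20 cases with 1 array left out. Cdkn1b, the gene of p27, was lower at a dimmer probe set (log2FC −0.48, adjusted p = 0.0152), in 20 of 20 such cases, but was not called at its brightest. Of the 7 genes 1 was called lower, against 0.517% of all genes. Of their 9 probe sets 2 were called lower and 0 higher, against 1.01% and 1.05% of all probe sets. At an unadjusted p under 0.05, 3 of the 9 were lower and 2 higher, against 8.1% and 9.93%.

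Markers of the cells that could carry these genes were measured in the same arrays. Of 10 markers of radial glia and neural stem cells 9 lay below 0 (median log2FC −0.06), and their mean was between −0.16 and 0.07 in HDAC4 KO and between −0.10 and 0.12 in WT brains. None was called at the brightest probe set, with 3 lower and 0 higher at an unadjusted p under 0.05, against 6.19% of all genes lower and 12.8% higher. Fabp7 had −0.11 (adjusted p = 0.0782) and Vim −0.16 (0.183), while Nes, the neural stem cell filament gene, was called lower at a dimmer probe set (−0.29, 0.0427, and in 8 of 20 cases with 1 array left out). Of 7 markers of intermediate progenitors and neuroblasts 5 lay below 0 (median −0.11, none called, 2 lower at an unadjusted p under 0.05), and their mean was between −0.44 and 0.15 in HDAC4 KO and between −0.08 and 0.26 in WT brains. HDAC4 KO replicate 8, lowest in the mitosis mean, was lowest in both of these lists too, and also in the meningeal fibroblast markers (−0.26), the other mitosis genes and the E2F, RB and DREAM regulators. Sox11 had −0.24 (adjusted p = 0.115) and Insm1 −0.26 (0.210).

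Cerebellar granule cell precursors (5 of 6 markers below 0, median −0.04, with Zic1 at −0.08 and Zic2 at 0.15) and oligodendrocyte precursors (3 of 5 below 0, median −0.02, with Olig2 at −0.10 and Sox10 at 0.10) had no call at the brightest probe set and 0 markers at an unadjusted p under 0.05, though Mycn was lower at a dimmer probe set (−0.18, adjusted p = 0.0236). Of 8 markers of postmitotic neurons 4 lay below 0 (median 0.00). At an unadjusted p under 0.05, 1 of the 8 was lower and 2 were higher at the brightest probe set, and 5 of their 19 probe sets were lower and 4 higher, against 8.1% and 9.93% of all probe sets. The neurofilament gene Nefl was called lower (−0.28, 0.0427), as was Syt1 at a dimmer probe set (−0.38, 0.0310). By quantitative PCR the paper found no change of Syt1 between the genotypes. Among the transcripts it tested because the arrays had them lower, only Calml4 was also lower by quantitative PCR. The cell cycle genes described here were not among those tested. Of the other cells in a whole brain, 5 of 6 meningeal fibroblast markers lay below 0 (median −0.08, mean between −0.26 and 0.08 in HDAC4 KO and between −0.16 and 0.25 in WT brains), 1 of 6 microglial markers did (median 0.06, mean between −0.14 and 0.20 in HDAC4 KO and between −0.25 and 0.10 in WT brains), and 4 of 6 endothelial and 1 of 4 erythroid markers did. None of these was called at the brightest probe set, with 2 fibroblast markers lower and 2 microglial and 1 erythroid marker higher at an unadjusted p under 0.05, against 6.19% of all genes lower and 12.8% higher. Without WT replicate 2 none of Mycn, Nefl and Syt1 stayed called (adjusted p up to 0.0508, 0.0819 and 0.0595 over single arrays left out). The part of any of these cells in the cell cycle values was not tested.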

How the data were processed

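Per the labels and the methods, total RNA of each brain was labelled with a 3′ IVT kit and read on Affymetrix mouse genome arrays, and chips of poor quality were removed. The authors deposited 1 log2 value per probe set and array, and these log2 values were used as deposited. How they were summarized and normalized was not given in the sources used here. Precision is limited by the number of arrays. Of 45101 probe sets 64 controls were left out. Probe sets were named through the platform annotation (34945 with 1 symbol, 932 with several, 9160 with none, 18193 genes), and 1 probe set shared by Tyms and another gene was not used.

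Linear models and moderated statistics of limma 3.58.1 (R 4.3.3) compared the genotypes over all 45037 probe sets with no covariate, in place of the methods' t-test, which was run as an alternative. The Benjamini-Hochberg method adjusted p over all of them, and a probe set was called under 0.05. Labelled sexes were compared in a fit of 4 groups. Relations between genes were tested by two-sided permutation of 100000 resamples within genotype. The comparisons were tested on simulated data in which probe sets varied independently, unlike the genes described here. Where nothing more is known of the replicates than their labels, the p-values measure only the spread between these samples.

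The genes and lists were chosen with earlier results of these data known. The rule for naming takes genes with a called probe set, the 6 of each list with the smallest p, the usual markers of dividing cells, the 8 with the largest gap between probe sets, and of each other list the called genes or the 2 with the smallest p. Ube2c, Kif20a, Kif11, Ccna2, Ccnb2, Aurka, Plk1, Cdc20, Birc5, Ccne1, Kif2c, Nuf2, Ndc80, Cenpa, Racgap1 and Mcm4 were named after their values were seen. Alternatives changed the test, covariates, normalization, dim probe sets, the probe set that stands for a gene, array weights and the arrays used.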

Additional observations from a re-analysis of the deposited data

Results flagged for a closer look

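Single arrays lay far from the other 9 of their group in 9 of 96 groups of 10 arrays, over 46 cell cycle probe sets and the means of both gene lists, by Dixon's criterion, which chance alone meets in about 1 in 20 groups. Ccne2 was lowest in HDAC4 KO replicate 5 (6.372, nearest array 6.626), and without that array its log2FC was −0.25 and the call held (adjusted p = 0.0380 from limma). Cenpf at its called probe set was lowest in HDAC4 KO replicate 10 (4.848, nearest 5.194), the array with the highest Hdac4 signal of its group, and without it the log2FC was −0.26 (adjusted p = 0.0299). The brightest probe set of Knl1 was highest in HDAC4 KO replicate 6 (6.619, nearest 6.415).

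WT replicate 1 was lowest at Gins2 (7.069, nearest 7.251), at the brightest probe set of Tpx2 (7.222, nearest 7.501) and at Birc5 (7.316, nearest 7.632), and it was also the lowest WT array in the mean of the mitosis genes. The other arrays that stood apart did so at dim probe sets. These were HDAC4 KO replicate 2 at Tpx2 (5.36, nearest 5.051), WT replicate 9 at Top2a (4.266, nearest 3.933) and HDAC4 KO replicate 4 at Kif23 (3.045, nearest 3.356).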

How the results depend on the processing

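Over 32 alternatives on probe sets and 2 more on which probe set stands for a gene, no cell cycle probe set was called higher, and the medians over genes stayed below 0, between −0.11 and −0.05 for the S-phase and between −0.13 and −0.07 for the mitosis genes. S-phase probe sets called lower (1) became 0 with the 3′ minus 5′ covariate and without the 3 arrays against their sex label, as did the 1 gene at its brightest probe set, and 2 with array weights. Mitosis probe sets called lower (3) became 0 with that covariate, 1 when dim probe sets were left out (of 22603, 678 were then called lower and 996 higher), and 1 without WT replicate 8 and HDAC4 KO replicate 10. Mitosis genes called lower became 3 with the most variable and 2 with the mean of a gene's probe sets, in place of 0. The 3 are the called probe sets of Cenpe, Cenpf and Knl1. Variance was taken over all arrays and includes the genotype difference, so that choice is not an independent check. Leaving out 1 array gave between 0 and 1 S-phase probe sets and genes, and between 1 and 3 mitosis probe sets, with 0 S-phase probe sets without WT replicate 2, WT replicate 4 or HDAC4 KO replicate 8 and 1 mitosis probe set without WT replicate 2. Over all probe sets the counts, 453 lower and 474 higher, were 167 and 184 without WT replicate 2, 724 and 991 without HDAC4 KO replicate 2, and 267 and 439 with Welch's test.

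The sign turned for probe sets near 0: a dim one of Bub1 (−0.01) had 0.0012 after quantile normalization and between −0.069 and 0.055 over left-out arrays, positive without WT replicate 2 or 9 or HDAC4 KO replicate 2, 7 or 8, and Nuf2 (0.05) had −0.050 without the 3 arrays against their sex label and between −0.024 and 0.102 over left-out arrays, negative without WT replicate 5 or 6 or HDAC4 KO replicate 6. Cdkn1c, Rfc4, Smc4 (brightest) and Nefl stayed called in 13, 16, 14 and 13 of 32 alternatives. The cause of these shifts was not tested.

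The replicate numbers did not pair the arrays: 1 of 10 same-numbered pairs had a correlation over 0.1 and 0 of 10 HDAC4 KO arrays matched best their own number. With the number as a replicate block the calls were again 1 S-phase and 3 mitosis probe sets, with adjusted p between 0.0145 and 0.0331.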
